A study of Mus musculus with 6 samples.

Results

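The genes described here encode the subunits of the mitochondrial respiratory chain and the ATP synthase in the nucleus. They were taken from the gene symbols in the deposited tables: every symbol starting with Nduf, with Cox followed by a digit from 4 to 8, with Uqcr or with Atp5, together with Sdha, Sdhb, Sdhc, Sdhd, Cyc1 and Cycs. This gave 94 of 23955 genes, of which 84 encode subunits or cytochrome c and 10 carry a matching symbol without being subunits. The 84 comprised 36 genes of complex I, 4 of complex II, 9 of complex III, 1 of cytochrome c, 19 of complex IV and 15 of the ATP synthase. The 10 others comprised 7 complex I assembly factors (the Ndufaf genes) and Cox7a2l, Atp5s and Atp5sl. No symbol in the tables carried the prefix of mitochondrially encoded genes, so those subunits were not analysed here.

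The respiratory chain passes electrons from NADH and succinate to oxygen. Complexes I, III and IV pump protons across the inner mitochondrial membrane, complex II feeds in electrons without pumping, and cytochrome c carries electrons from complex III to complex IV. The ATP synthase lets the protons flow back through a rotating ring of c subunits and makes ATP. Astrocytes are known for high glycolytic activity but also contain many mitochondria, including in their fine processes.

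Ribosome-bound mRNA was compared between the diencephalon, dissected without the surroundings of the third ventricle, and cortical grey matter without its meninges and white matter. All mice were labelled C57BL/6. They combined the Cre allele Slc1a3tm1(cre/ERT2)Mgoe with the taggable ribosomal allele B6N.129-Rpl22 tm1.1Psam/J and the reporter Tg(CAG-cat,-EGFP)1Rbns/KrnzJ from the background FVB.B6, in the genotype Slc1a3 +/- GFP+ Rpl22HA fl/fl, so that 1 copy of the glutamate transporter gene Slc1a3 carried the Cre and every library shared this change. Tamoxifen was given by gavage in 3 doses of 0.4 mg per g from 9 weeks of age, which switched the ribosomal protein Rpl22 to a tagged form where the Slc1a3 locus was active, and mice of both sexes were 3 months old. Each region had 3 libraries, and each library pooled 3 mice. There was no untagged or input sample among the 6 libraries. Replicates were separate pools, and the p-values measure the spread between these pools.

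Expected counts summed to between 1733140 and 2334240 per library, and the 94 genes took 0.329% to 0.403% of them in the diencephalon and 0.430% to 0.465% in cortical grey matter. The astrocyte markers were present in every library, with summed levels of 15603 to 18296 normalised counts (CPM, scaled by TMM) in the diencephalon and 25790 to 32480 in cortical grey matter. Genes shorter than 1000 bases held 1.11% to 1.23% of diencephalic counts and 1.57% to 2.07% of cortical counts. The ribosomal RNA precursor Rn45s had the opposite order, with 3.52% to 4.48% and 1.77% to 2.23%. Cortex 3 was the least typical cortical library: its chi-square over genes, divided by the degrees of freedom, was 7.57 and 6.52 against cortex 1 and cortex 2, which gave 2.72 between them. In these bulk samples, fewer cells of a type and less RNA per cell cannot be told apart.

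The respiratory genes were lower in the diencephalon. Of the 94 genes, 79 had enough counts to be tested, and 29 of these fell below cortical grey matter (edgeR quasi-likelihood test, adjusted p under 0.05 over all 10568 genes tested), whereas 0 rose. Over all genes tested, 14.8% were lower and 14.9% were higher in the diencephalon, 29.6% in all. The median log2 difference, diencephalon minus cortex throughout, was -0.60 over the tested respiratory genes and 0.01 over all genes tested. For 42 of the 79 every diencephalic library lay below every cortical library, which held for 20.8% of all genes tested. Of the 79, 72 met the count minimum in at least 2 libraries of both regions, and 27 of those fell, with a median of -0.49. The other 7 (Atp5e, Ndufa1, Ndufa2, Ndufab1, Ndufb3, Ndufb7 and Uqcrq) did not meet that minimum in both regions.

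The plot of log2 differences by complex gives the calls in each part of the chain. In complex IV 9 of 11 tested genes fell, and in the ATP synthase 8 of 14. The latter include Atp5e, which met the count minimum only through cortical grey matter. Complex I had 7 of 33, complex III 3 of 9 and complex II 0 of 4, and the single cytochrome c gene fell. Among the genes that are not subunits, 1 of 7 fell, near the 14.8% of all genes tested. The medians ran from -0.70 in complex IV and -0.62 in complex I to -0.53 in the ATP synthase, -0.37 in complex III and -0.35 in complex II. No test compared the complexes with one another. With the trend on transcript length removed (described with the length results), 1 of 11 fell in complex IV and 3 of 14 in the ATP synthase. Complex I then had 2 of 33 and complex III 2 of 9, against 15.0% lower over all genes tested. The medians in that fit were -0.21 in complexes I and IV and -0.27 in the ATP synthase.

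**Figure D1:**
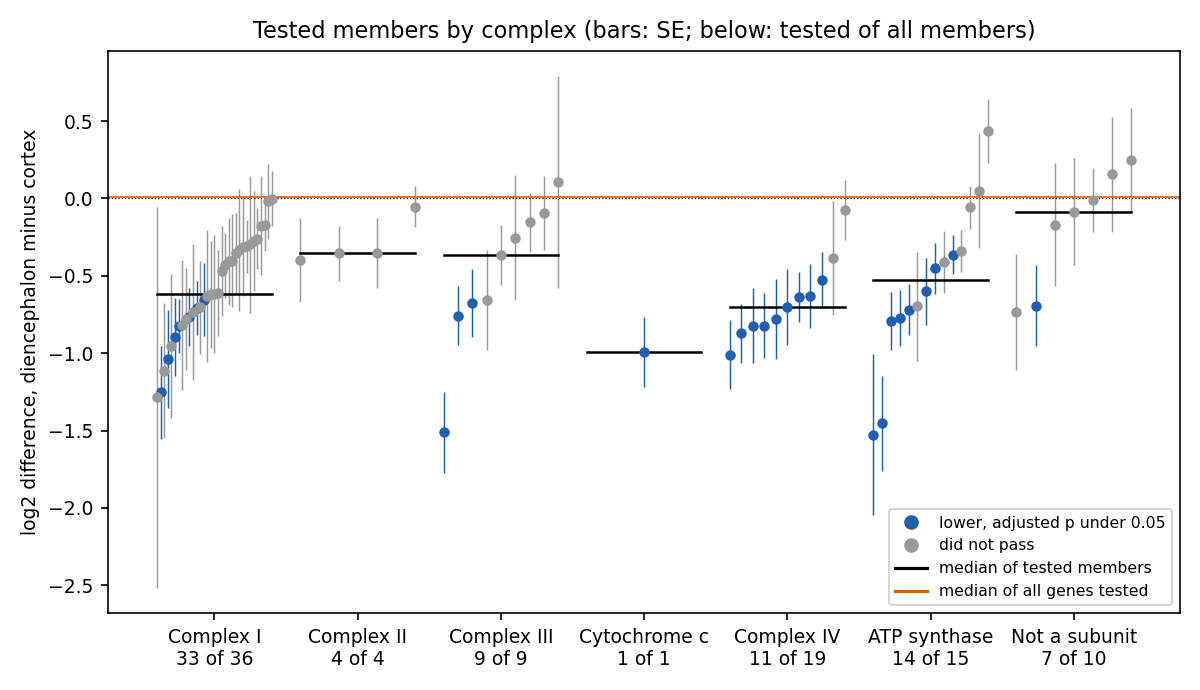
Log2 difference between diencephalon and cortical grey matter (vertical axis) for each of the 79 tested genes, ordered within its complex (horizontal axis), with bars for the standard error. Blue points passed the test, black lines mark the median of each complex, and the orange line marks the median of all genes tested at 0.01; complex IV has 9 blue points of 11 and complex II has 0 of 4.

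Sums over all genes of a complex, tested or not, were lower in the diencephalon for most of the chain. The 94 genes together summed to 3919, 3417 and 3237 CPM in the diencephalon and to 4565, 4817 and 4632 CPM in cortical grey matter, a ratio of cortex to diencephalon of 1.33. Every diencephalic library lay below every cortical one. Complex IV summed to 333, 325 and 307 CPM against 491, 538 and 522 CPM, a ratio of 1.61. Complex III and complex I had ratios of 1.44 and 1.41, and the ATP synthase had 1.29, without overlap between regions in any of these. Complex II summed to 533, 445 and 407 CPM against 500, 544 and 469 CPM, a ratio of 1.09 with overlapping libraries. Atp5b alone held a large part of the total, and without it the ratio over the other 93 genes was 1.35.

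**Figure D2:**
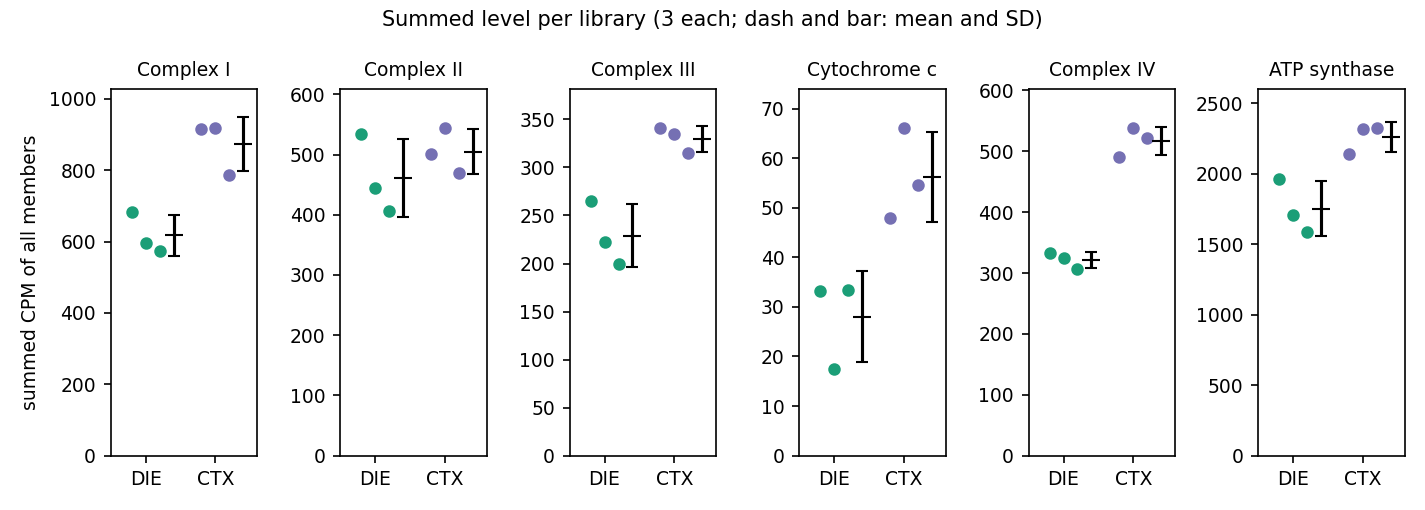
Summed level of all genes of a complex in CPM (vertical axes, each from 0) in each library of the diencephalon (DIE, green) and cortical grey matter (CTX, purple), with the mean and SD beside the points. The regions overlap in complex II and are apart in the other panels, with complex IV at 307 to 333 CPM in the diencephalon and 491 to 538 CPM in cortical grey matter.

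Promoter sequences from RefSeq (build GRCm38.p6) were found for 77 of the 94 genes and searched on both strands of the 250 bases before the annotated start for short forms of 3 motifs, those of factors known to bind promoters of respiratory genes. The NRF1 core (GCGCATG) was present in 12 of the 77 (15.6%), against 6.49% of the 8368 tested genes with a promoter and 3.68% of all 27025 genes in the table. The GABPA core (CCGGAAG) was present in 13 (16.9%), against 15.0% of tested genes and 7.83% of all genes. The YY1 core (AAGATGG) was present in 2 (2.60%), against 5.02% and 5.18%. The NRF1 core stood in 4 of the 24 matched genes that fell and in 6 of the 43 that did not pass, and the GABPA core in 6 and 6 of them. These shares are descriptions without a test, and a match is not a measured binding site. The NRF1 matches of the 4 genes that fell and of the 6 that did not pass are shown so that the 2 outcomes can be compared letter by letter. Each has 30 bases in the direction of the gene, with the core, or its reverse complement, in capitals. Where matches on both strands overlap, the capitals cover both:
Cycs, fell (chr6:50566610-50566639, minus strand): atgctagctcgCATGCGCgcgcacaaacct
Atp5l, fell (chr9:44920963-44920992, minus strand): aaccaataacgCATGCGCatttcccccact
Cox5b, fell (chr1:36691425-36691454, plus strand): gaggcagaactGCGCATGtgcggcgtctac
Cox6a1, fell (chr5:115349101-115349130, minus strand): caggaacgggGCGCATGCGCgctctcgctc
Atp5g2, did not pass (chr15:102671070-102671099, minus strand): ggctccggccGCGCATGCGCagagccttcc
Ndufa11, did not pass (chr17:56717692-56717721, plus strand): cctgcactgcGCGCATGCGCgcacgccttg
Ndufa8, did not pass (chr2:36049339-36049368, minus strand): gcgcttgcgcgtcgctggagacgCATGCGC
Ndufaf4, did not pass (chr4:24897960-24897989, plus strand): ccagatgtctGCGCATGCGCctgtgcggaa
Ndufb6, did not pass (chr4:40279480-40279509, minus strand): gagagggctttGCGCATGagcagagcctgc
Sdhb, did not pass (chr4:140961207-140961236, plus strand): agcccagtgggCATGCGCcctacgggccgc

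The GABPA core also stood in 6 genes that did not pass (Atp5j, Ndufb6, Ndufb7, Sdhd, Uqcr11 and Uqcrh), whose matches are not printed here. The GABPA matches of the 6 genes that fell are shown in the same way, since this was the most frequent of the 3 motifs:
Atp5e (chr2:174464185-174464214, minus strand): tacggccacagCTTCCGGtagccgctcggc
Atp5h (chr11:115419939-115419968, minus strand): caaggagagaaCTTCCGGcaactctcttcc
Atp5l (chr9:44920936-44920965, minus strand): acttcaccgatCTTCCGGaccaacatgaat
Cox6a1 (chr5:115348959-115348988, minus strand): cgtccccatttccgCTTCCGGcgcgccggt
Cox6b1 (chr7:30626124-30626153, minus strand): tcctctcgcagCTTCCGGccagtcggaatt
Ndufs3 (chr2:90904730-90904759, minus strand): cccgcgtccgcCCGGAAGaagagtcactgc

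Complex I accepts electrons from NADH and is the largest complex of the chain. All 33 tested genes had a negative log2 difference, from -1.29 to -0.00, and 7 fell. The count that fell lay near the 20.3% that fell in the shortest decile of all genes tested. The median log2 difference of that decile was itself negative, at -0.35. With the length trend removed the sign was no longer shared. Some genes, such as Ndufa10 (log2 0.23) and Ndufv1 (log2 0.12), were then positive, and the median of complex I was -0.21. Of the 7 nuclear core subunits, which hold the flavin and the iron-sulfur clusters, Ndufs7 and Ndufs3 fell. Ndufs7 stood at 13.1, 11.1 and 6.27 CPM in the diencephalon and at 27.5, 27.7 and 17.4 CPM in cortical grey matter. All cortical libraries were higher, and the log2 difference was -1.25 ± 0.30 (SE; edgeR adjusted p = 0.00291). Ndufs3 stood at 22.0, 14.2 and 12.5 CPM against 33.6, 25.6 and 32.3 CPM, again without overlap (log2 -0.90 ± 0.25, edgeR adjusted p = 0.00964). The other 5 core subunits did not pass. Ndufs1, which carries iron-sulfur clusters of the NADH-oxidising arm, was at 49.3 ± 0.839 CPM (SD, n = 3) in the diencephalon and 60.8 ± 8.03 CPM in cortical grey matter, and Ndufv1, which binds NADH, was at 26.5 ± 5.65 and 26.6 ± 6.96 CPM.

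Among the accessory subunits of complex I, which surround the core, 5 of 26 tested genes fell: Ndufa12, Ndufb9, Ndufa13, Ndufb4 and Ndufc2. This count lay near the shares of all genes tested (14.8%) and of their shortest decile (20.3%). Ndufa12 had the highest mean level per length of all complex I genes, at 384 ± 43.7 the deposited length-scaled unit (TPM; SD, n = 3) in the diencephalon and 582 ± 58.4 TPM in cortical grey matter. Its counts were 37.4, 44.3 and 37.1 CPM against 75.9, 63.9 and 70.2 CPM, with every cortical library higher (log2 -0.82 ± 0.17, edgeR adjusted p = 0.000886). Ndufb9 gave 43.0, 45.3 and 37.6 CPM against 65.9, 76.1 and 64.0 CPM (log2 -0.71 ± 0.17, edgeR adjusted p = 0.00320). Ndufa13, which is also known as the cell death regulator GRIM-19, gave 39.8, 32.7 and 28.2 CPM against 54.5, 62.3 and 55.3 CPM (log2 -0.77 ± 0.19, edgeR adjusted p = 0.00348). In all of these the regions were apart. Ndufb4 (log2 -1.04 ± 0.32, edgeR adjusted p = 0.0168) and Ndufc2 (log2 -0.65 ± 0.24, edgeR adjusted p = 0.0417) were less certain. Ndufb4 lost its call without diencephalon 1, diencephalon 2 or cortex 2, with edgeR adjusted p of 0.0591 to 0.0944, and Ndufc2 lost it without any of the 6 libraries, with 0.0515 to 0.152. Ndufs3 lost it without diencephalon 3 (edgeR adjusted p = 0.0659).

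Several small accessory genes differed as much in level without passing. Ndufs5 was listed at 6.08, 0 and 6.27 CPM in the diencephalon and at 16.1, 13.3 and 0 CPM in cortical grey matter. With 1 library at 0 in each region its log2 difference of -1.29 had a standard error of 1.23. Ndufb3 was at 3.80 ± 1.76 against 8.48 ± 1.68 CPM (SD, n = 3; edgeR adjusted p = 0.0594). Ndufa10 had nearly the same level, at 46.5 ± 4.63 and 46.6 ± 1.59 CPM, with a log2 standard error of 0.18. Ndufa5, Ndufa6 and Ndufb2 had too few counts for the test. Ndufa5 had 17 counts over the diencephalic libraries and 49 over the cortical ones, a ratio of 2.97 after scaling (exact 95% interval 1.68 to 5.49, for counting error only, since the amplified reads carry no molecular identifiers).

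Complex II, which oxidises succinate and is also an enzyme of the citric acid cycle, had no gene past the threshold. Sdha, the flavoprotein that binds succinate, was at 416, 357 and 302 CPM in the diencephalon and at 366, 399 and 350 CPM in cortical grey matter. The libraries overlapped, and the log2 difference was -0.05 ± 0.13 (edgeR adjusted p = 0.797). Sdhb, the iron-sulfur subunit, was at 18.2, 24.3 and 24.0 CPM against 32.7, 26.6 and 24.8 CPM (log2 -0.35 ± 0.23, edgeR adjusted p = 0.262). The membrane anchors Sdhc and Sdhd had log2 differences of -0.35 ± 0.18 (edgeR adjusted p = 0.145) and -0.40 ± 0.27 (edgeR adjusted p = 0.289). Sdha carried most of the complex's level, at 487 ± 71.6 TPM (SD, n = 3) in the diencephalon and 439 ± 21.6 TPM in cortical grey matter, so that the summed TPM of complex II had a ratio of cortex to diencephalon of 0.993. Sdhc passed, with the lower level in the diencephalon, when diencephalon 1 or cortex 3 was left out.

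Complex III passes electrons from ubiquinol to cytochrome c. Uqcr10, a small subunit beside the catalytic core, had the smallest adjusted p of all respiratory genes. It stood at 9.36, 11.6 and 8.36 CPM in the diencephalon and at 28.8, 28.2 and 26.7 CPM in cortical grey matter. The regions were far apart compared with the spread within them, and the level was 2.85-fold lower in the diencephalon (log2 -1.51 ± 0.26, edgeR adjusted p = 0.000113). Uqcrc2, a core protein without a redox centre, stood at 69.2, 47.5 and 49.6 CPM against 98.6, 113 and 69.6 CPM, where cortex 3 nearly met diencephalon 1 (log2 -0.76 ± 0.19, edgeR adjusted p = 0.00416). Cyc1, the haem-carrying cytochrome c1, stood at 34.6, 39.5 and 28.2 CPM against 53.2, 38.3 and 73.3 CPM. Its libraries overlapped, since cortex 2 lay below diencephalon 2 (log2 -0.68 ± 0.22, edgeR adjusted p = 0.0247). Cyc1 lost the call without diencephalon 1, diencephalon 3, cortex 1 or cortex 3 (edgeR adjusted p of 0.0510 to 0.127). The 6 other genes did not pass, among them the Rieske iron-sulfur protein Uqcrfs1 at 35.9 ± 2.41 and 46.0 ± 7.58 CPM (SD, n = 3) and Uqcrh at 20.9 ± 1.72 and 22.5 ± 4.04 CPM. Uqcrq varied more within regions than between them, at 8.42, 8.96 and 1.05 CPM against 2.18, 3.73 and 12.4 CPM.

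Cycs, the gene of somatic cytochrome c, has the longest transcript of the chain's own genes at 3059 bases. It was measured at 33.2, 17.4 and 33.4 CPM in the diencephalon and at 48.0, 66.0 and 54.7 CPM in cortical grey matter. Every cortical library was higher, and the level was 1.99-fold lower in the diencephalon (log2 -0.99 ± 0.23, edgeR adjusted p = 0.00182). Its decrease passed in all 18 alternatives that were run, with a highest adjusted p among those that left out 1 library of 0.0166 (edgeR).

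Complex IV, cytochrome c oxidase, reduces oxygen, and its 11 tested nuclear genes are the forms found in most tissues. Of these, 9 fell: Cox7b, Cox7c, Cox6c, Ndufa4, Cox6b1, Cox5b, Cox8a, Cox5a and Cox6a1. Cox7c had the highest mean level per length in the complex, at 552 ± 75.8 TPM (SD, n = 3) in the diencephalon and 857 ± 167 TPM in cortical grey matter. Its counts were 46.8, 34.3 and 38.7 CPM against 80.7, 82.0 and 55.9 CPM, with cortex 3 the lowest cortical library and still above the diencephalon (log2 -0.87 ± 0.19, edgeR adjusted p = 0.00125). Cox7b was at 42.1, 25.3 and 28.2 CPM against 46.2, 75.1 and 73.9 CPM, where cortex 1 lay close to diencephalon 1 (log2 -1.01 ± 0.22, edgeR adjusted p = 0.00160). Cox8a was at 56.6, 47.5 and 56.4 CPM against 73.3, 89.4 and 87.6 CPM, well apart (log2 -0.64 ± 0.16, edgeR adjusted p = 0.00473). Ndufa4, named as a complex I gene but found in complex IV, was at 23.9, 30.1 and 42.3 CPM against 65.0, 52.2 and 51.6 CPM without overlap (log2 -0.82 ± 0.21, edgeR adjusted p = 0.00488).

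Cox5a and Cox5b, the subunits on the matrix side, and Cox6a1, Cox6b1 and Cox6c also fell without overlap, with log2 differences of -0.82 to -0.53 and edgeR adjusted p of 0.0131 to 0.0346. These 5 calls were fragile. Each was lost in 3 or 4 of the 6 fits that left out 1 library, every time without diencephalon 3, with a highest edgeR adjusted p of 0.147. The calls of Cox7b, Cox7c, Cox8a and Ndufa4 held in all 6. Cox4i1, the subunit at which ATP binds to regulate the enzyme, did not pass, at 44.9, 46.9 and 32.9 CPM against 39.7, 43.1 and 49.1 CPM. The regions overlapped widely there (log2 -0.07 ± 0.19, edgeR adjusted p = 0.816). Cox7a2 did not pass either, at 8.04 ± 2.51 and 10.5 ± 3.37 CPM (SD, n = 3; log2 -0.39 ± 0.37, edgeR adjusted p = 0.466).

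The remaining 8 genes of complex IV are isoforms used in particular tissues, such as muscle, lung or testis, and none had enough counts to be tested. Cox4i2, the isoform known from lung and from oxygen-sensing cells, had 1, 0 and 2 counts in the diencephalon and 8, 10 and 2 counts in cortical grey matter. The ratio of cortex to diencephalon was 6.86 (exact 95% interval 2.03 to 36.0, for counting error only and not for the spread between pools). Cox4i2 made up 1.25 ± 1.43% (SD, n = 3) and 6.60 ± 4.00% of the summed TPM of the Cox4 genes (two-sided exact permutation p = 0.2). Cox6a2, the heart and skeletal muscle isoform, had 0, 0 and 1 counts against 4, 3 and 2 counts, a ratio of 9.26 (exact 95% interval 1.28 to 406, again for counting error only). Its share of the Cox6a genes was 0.373 ± 0.646% against 2.14 ± 0.272% (two-sided exact permutation p = 0.1, the smallest that 3 against 3 libraries allow). Cox7a1 had 2 and 6 counts, Cox6b2 7 and 4, Ndufa4l2 1 and 2, Cox7b2 0 and 2 and Cox8b 1 and 0, and Cox8c had 0 in every library. The isoforms Cox4i2 and Cox6a2 are also known from pericytes and parvalbumin interneurons. The 10 pericyte and smooth muscle markers summed to 81.5 to 103 CPM in the diencephalon and 179 to 279 CPM in cortical grey matter, with 7 of 10 lower in the diencephalon and Higd1b at 0 in all libraries. Without Vtn, the most abundant, the ratio of cortex to diencephalon was 1.81. Rgs5 had few counts, at 1.87, 2.64 and 3.66 against 3.49, 3.73 and 3.11 CPM, and Kcnj8 was nearly absent. Abcc9 did not follow the sum, at 6.55, 1.58 and 6.79 against 1.75, 2.66 and 4.35 CPM. The 8 interneuron markers summed to 743 to 815 and 441 to 502 CPM, with 2 of 8 lower in the diencephalon (Gad1 and Lhx6). Pvalb was nearly absent from both regions, at 0.468, 0.527 and 0 CPM in the diencephalon and 0 in every cortical library. The part of these cells in the isoform counts was not tested.

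In the ATP synthase, 3 of the 5 genes of the F1 head fell. Atp5b, the catalytic beta subunit, was the most abundant respiratory gene per length, at 2166 ± 250 TPM (SD, n = 3) in the diencephalon and 2378 ± 173 TPM in cortical grey matter. Its counts of 1161, 949 and 918 CPM against 1157, 1337 and 1337 CPM overlapped at diencephalon 1, and it did not pass (log2 -0.34 ± 0.14, edgeR adjusted p = 0.0651). It passed as lower with DESeq2 (adjusted p = 0.0395), with limma and voom (adjusted p = 0.0404), and in the edgeR fits without diencephalon 1, cortex 1 or cortex 3. Atp5c1, the gamma subunit that turns inside the head, stood at 74.9, 55.4 and 49.6 CPM against 97.3, 97.4 and 102 CPM without overlap (log2 -0.72 ± 0.16, edgeR adjusted p = 0.00187). Atp5a1, the alpha subunit, had a small difference, at 380, 329 and 296 CPM against 428, 402 and 463 CPM (log2 -0.36 ± 0.13, edgeR adjusted p = 0.0357). Atp5e, the epsilon subunit, rested on few counts, at 1.40, 4.75 and 1.05 CPM against 6.54, 7.45 and 6.83 CPM (log2 -1.53 ± 0.52, edgeR adjusted p = 0.0302). It met the count minimum only through cortical grey matter, where it was high. The delta subunit Atp5d was at 89.2 ± 5.23 and 92.6 ± 4.00 CPM (SD, n = 3) and did not pass.

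Among the genes of the stalk and membrane parts, 4 of 6 tested fell. Atp5l, the membrane subunit g, stood at 6.55, 7.91 and 5.75 CPM in the diencephalon and at 17.9, 19.2 and 18.6 CPM in cortical grey matter. The libraries of each region lay close together and far from the other region, and the level was 2.74-fold lower in the diencephalon (log2 -1.45 ± 0.31, edgeR adjusted p = 0.000939). Atp5h, the stalk subunit d, stood at 38.8, 33.2 and 32.9 CPM against 68.9, 62.8 and 49.1 CPM without overlap (log2 -0.79 ± 0.19, edgeR adjusted p = 0.00273). Atp5f1, the stalk subunit b (edgeR adjusted p = 0.0408), and Atp5o, the stalk subunit that binds the F1 head (edgeR adjusted p = 0.0425), also fell. Atp5e, Atp5f1 and Atp5o lost their calls in 4 of the 6 fits that left out 1 library and Atp5a1 in 3, again in each case without diencephalon 3, with edgeR adjusted p up to 0.194. Atp5k had 15 and 28 counts and was not tested.

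The rotating ring is built from subunit c, whose mature protein is the same from the 3 genes Atp5g1, Atp5g2 and Atp5g3. The summed level of the 3 genes was similar, with a ratio of cortex to diencephalon of 1.10 in CPM and 0.979 in TPM, and the libraries overlapped. The genes did not move together. Atp5g3 stood at 29.9, 34.3 and 34.5 CPM in the diencephalon and at 54.5, 57.0 and 57.1 CPM in cortical grey matter (log2 -0.77 ± 0.18, edgeR adjusted p = 0.00228), with the regions well apart. Atp5g1 stood at 55.7, 65.4 and 39.2 CPM against 33.6, 48.4 and 36.6 CPM, where diencephalon 3 lay within the cortical range, and did not pass (log2 0.44 ± 0.21, edgeR adjusted p = 0.125). Without diencephalon 3 it passed as higher. Atp5g2 stood at 8.36 ± 2.73 and 8.05 ± 0.639 CPM (SD, n = 3). As a share of the summed TPM of the 3 genes, Atp5g1 made up 52.9%, 56.9% and 40.9% in the diencephalic libraries and 29.7%, 37.4% and 31.1% in the cortical ones. Atp5g3 made up 35.3%, 37.0% and 44.6% against 60.0%, 54.5% and 60.5%. Neither share overlapped between the regions (two-sided exact permutation p = 0.1 for each, the smallest possible). Paralogues as alike as these, and genes with processed pseudogenes, share reads that RSEM divides by estimate, so their single values are uncertain.

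**Figure D3:**
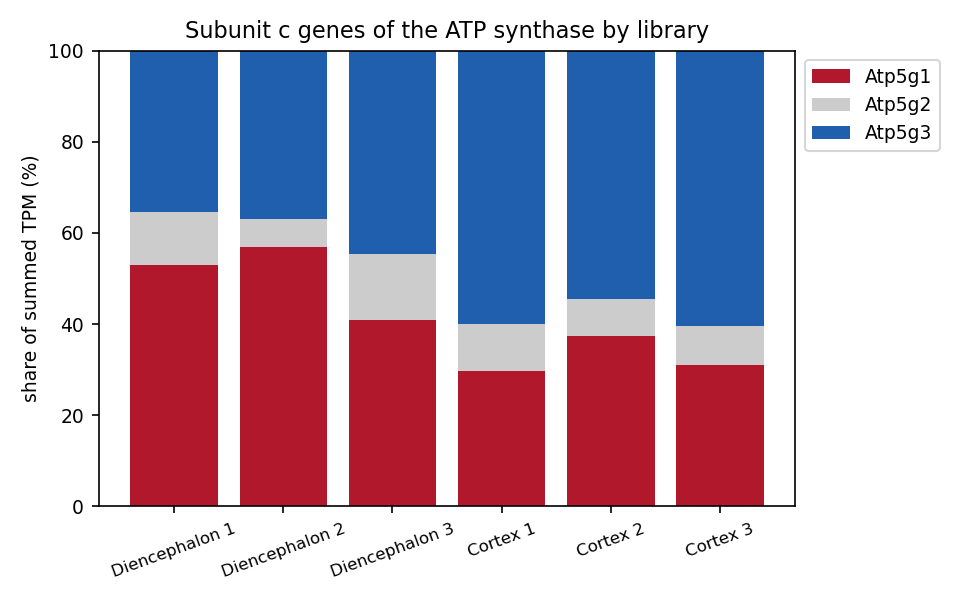
Share of Atp5g1, Atp5g2 and Atp5g3 in their summed TPM (vertical axis, percent) in each of the 6 libraries. The red share of Atp5g1 is 40.9% to 56.9% in the diencephalon and 29.7% to 37.4% in cortical grey matter.

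Of the genes with matching symbols that are not subunits, none of the 4 tested complex I assembly factors passed, with log2 differences from -0.17 to 0.25, and Ndufaf1, Ndufaf2 and Ndufaf6 had too few counts. Ndufaf4 was at 41.3 ± 2.86 and 41.9 ± 12.1 CPM (SD, n = 3). Cox7a2l, which joins complexes III and IV into supercomplexes, was at 19.6, 16.9 and 19.3 CPM against 28.4, 20.2 and 42.9 CPM, with cortex 2 just above the diencephalon (log2 -0.69 ± 0.26, edgeR adjusted p = 0.0499). That call was lost in 14 of the 18 alternatives, among them the removal of any library other than cortex 2 (edgeR adjusted p of 0.0742 to 0.267). Atp5sl was at 3.74, 8.96 and 9.93 CPM against 10.9, 10.6 and 16.1 CPM, without overlap, but did not pass (log2 -0.73 ± 0.38, edgeR adjusted p = 0.154). Atp5s was at 7.02, 7.91 and 13.6 CPM against 9.16, 6.39 and 9.94 CPM, with overlap.

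Transcript length moved with these differences. The respiratory genes are short, with a median length of 710 bases in the deposited tables against 3291 bases over all genes tested, and 78 of the 94 were under 1500 bases. The plot against gene length shows that all short genes tended to be lower in the diencephalon. In the shortest decile of tested genes, from 325 to 1475 bases, 20.3% fell and the median log2 difference was -0.35. The respiratory genes in that decile numbered 62, of which 26 fell, with a median of -0.63. Across all 79 tested respiratory genes, 63 lay below the median of their own length decile, by a median of 0.27 on the log2 scale. Spearman's correlation of the log2 difference with length was 0.43 over the 79 genes, which share the 6 libraries and are not independent.

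The gap between the respiratory genes and other genes of like length varied with the length class. Under 600 bases, 13 of 27 tested respiratory genes fell (48.1%), with a median of -0.78, against 32.8% of 67 other genes with a median of -0.59. From 600 to 800 bases the medians were level, at -0.45 and -0.46, while 6 of 15 respiratory genes fell (40.0%) against 25.2% of 127 others. From 800 to 1500 bases, 7 of 21 fell (33.3%), with a median of -0.47, against 16.9% of 834 others with a median of -0.28. From 1500 to 3000 bases, 2 of 14 fell (14.3%), Atp5a1 and Uqcrc2, with a median of -0.22, against 13.7% of 3485 others with a median of -0.04. The summed CPM of the respiratory genes had ratios of cortex to diencephalon of 1.68 under 600 bases, 1.35 from 600 to 800 bases, 1.39 from 800 to 1500 bases and 1.23 at 1500 bases or more.

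**Figure D4:**
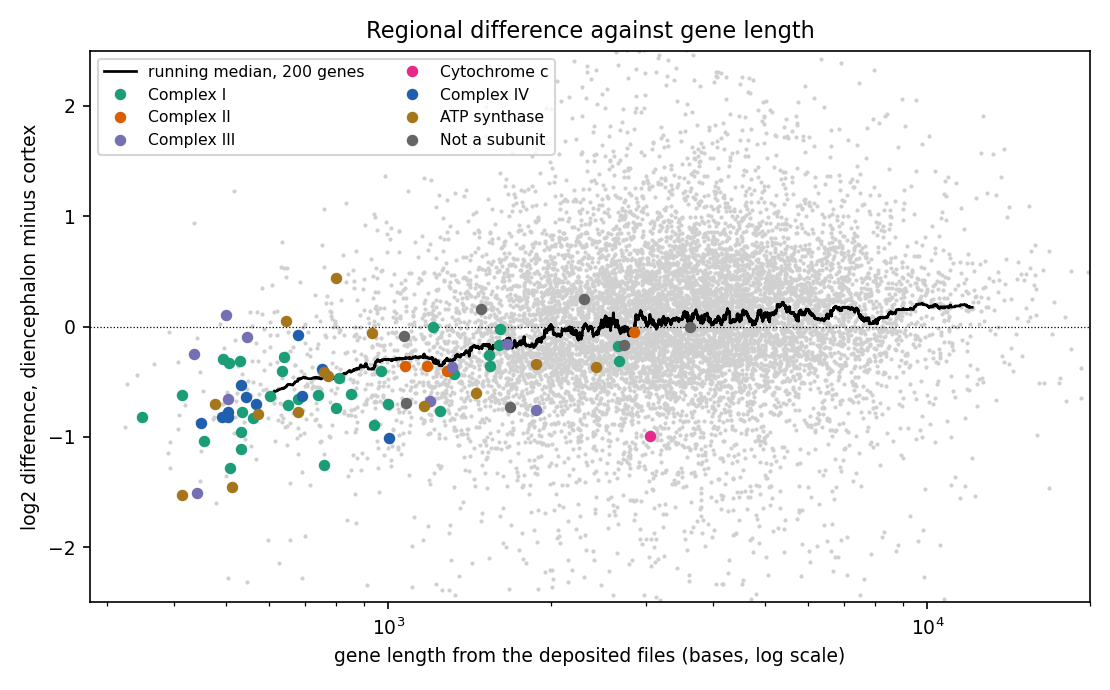
Log2 difference between diencephalon and cortical grey matter (vertical axis) against gene length in bases on a log scale (horizontal axis), with all tested genes in grey, respiratory genes coloured by complex, and the running median of 200 genes in black; the vertical axis is limited to differences of 2.5 either way. The running median sinks toward short genes, most coloured points lie at or below it, and Cycs stands at -0.99 at 3059 bases.

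The cytosolic ribosomal protein genes, with a median length of 740 bases, had 26 of 67 tested genes lower (38.8%), 0 higher and a median of -0.59. The mitochondrial ribosomal protein genes, with a median length of 1411 bases, had 5 of 49 lower (10.2%), 0 higher and a median of -0.28. The values of the respiratory genes were thus close to those of the cytosolic ribosomal proteins, and no test set these lists apart.

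When the trend on length was removed from each library before the test, fewer genes passed. Of the 79 respiratory genes 9 remained lower, with a median of -0.19, against 15.0% lower among all genes tested. The 9 were Cycs, Uqcr10, Uqcrc2, Ndufs7, Ndufa13, Cox7b, Atp5l, Atp5c1 and Atp5a1, and all of them were among the 29. Cycs had a log2 difference of -1.04 ± 0.23 (edgeR adjusted p = 0.00137), Uqcr10 -0.91 ± 0.26 (edgeR adjusted p = 0.0112) and Uqcrc2 -0.67 ± 0.18 (edgeR adjusted p = 0.00773). Complex IV kept 1 of its 9 calls, Cox7b (log2 -0.71 ± 0.22, edgeR adjusted p = 0.0191), complex I kept 2 of 7, complex III 2 of 3 and the ATP synthase 3 of 8. Atp5g1 became higher (log2 0.82 ± 0.20, edgeR adjusted p = 0.00381), against 13.0% higher among all genes tested. The part of RNA quality or of the amplification in the length trend was not tested.

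**Figure D5:**
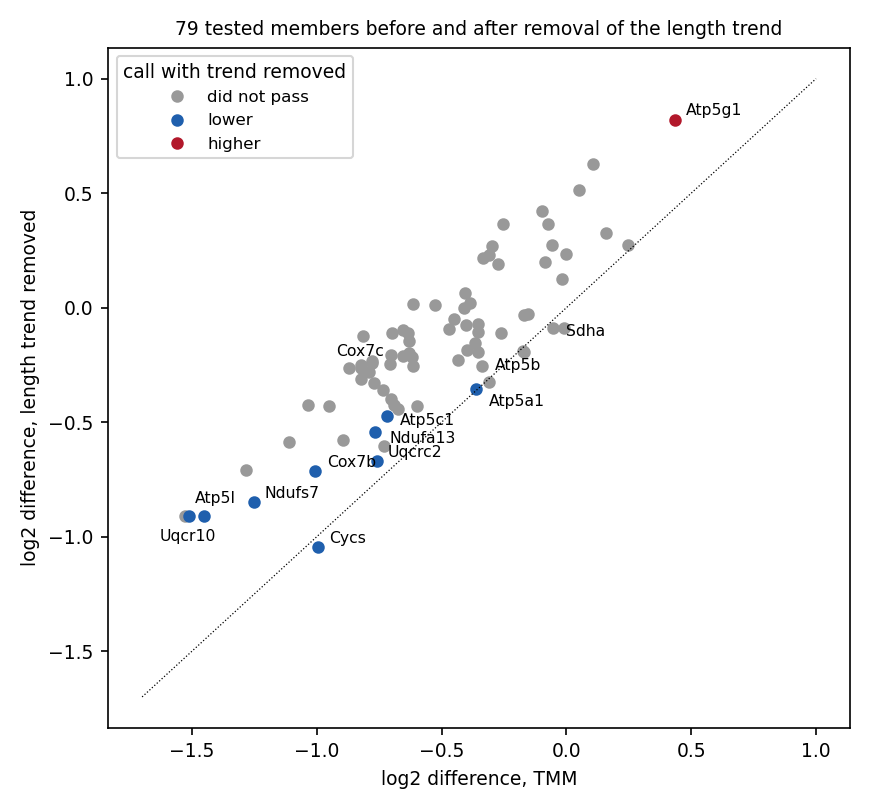
Log2 difference of the 79 tested respiratory genes with TMM scaling alone (horizontal axis) and with the length trend removed (vertical axis), with the dotted line marking equal values. Most points lie above the line; the 9 blue genes remained lower and the red gene, Atp5g1, became higher.

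Scaling also set how many genes passed. On the deposited TPM values, limma on log2(TPM + 1) called 22 of 92 respiratory genes lower and 1 higher, against 6.70% and 14.8% of all genes. The median of all genes stood at 0.22 on that scale and the median of the respiratory genes at -0.38, a gap of -0.59 compared with -0.61 on the count scale. With log2(TPM + 0.1), 19 were lower, against 6.35% of all genes. The TPM split of all calls was 2118 higher to 958 lower, whereas the count fit gave 1574 higher to 1559 lower. With scaling factors taken from the shortest decile of genes, an alternative chosen after the data were seen, 7 respiratory genes were lower and 1 higher, against 7.38% and 34.5% of all genes. The median of all genes was then 0.36 and that of the respiratory genes -0.26. Atp5l, Cox7b, Cycs, Ndufs7 and Uqcr10 were lower in all 18 alternatives, and 15 of the 29 calls held in all 6 fits that left out 1 library. Without diencephalon 3, 17 were lower and 1 higher, against 10.8% and 10.4% of all genes.

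Other genes of mitochondrial energy metabolism were called about as often as genes at large or less. Of 89 tested genes in 9 lists, 11 were lower (12.4%) and 6 higher (6.74%), against 14.8% and 14.9% of all genes tested, and the counts of single lists are to be read against those shares. Among assembly factors outside the symbol rule, complex I had 1 of 7 tested genes higher, Acad9 (17.7 ± 0.873 and 9.13 ± 3.25 CPM, SD, n = 3; log2 0.96 ± 0.31, edgeR adjusted p = 0.0234), and 0 lower. Complex IV and cytochrome c had 2 of 13 lower and 0 higher. These were Cox10, a haem synthesis enzyme (log2 -0.72 ± 0.17, edgeR adjusted p = 0.00279), and Cox20, a chaperone of the copper-binding subunit (log2 -1.40 ± 0.50, edgeR adjusted p = 0.0381). Cox20 was at 2.68 ± 1.57 and 7.30 ± 2.29 CPM (SD, n = 3). It met the count minimum only through cortical grey matter, where it was high. Complex II had 0 of 1 and complex III 0 of 4 in either direction. Atpif1, the inhibitor of the ATP synthase, fell (log2 -0.86 ± 0.30, edgeR adjusted p = 0.0312), as 1 of 2 tested genes of its list. The calls of Acad9, Cox20 and Atpif1 were each lost without 4 or more of the libraries in turn.

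The pyruvate dehydrogenase and citric acid cycle genes had 4 of 19 lower, Suclg2, Dld, Fh1 and Pdha1, and 2 higher, Pcx and Ogdh, with a median of -0.27. Suclg2, a subunit of the GTP-forming succinyl-CoA ligase, was at 71.7 ± 10.8 and 103 ± 14.0 CPM (SD, n = 3; log2 -0.52 ± 0.16, edgeR adjusted p = 0.0148). It lost the call without diencephalon 2, cortex 1 or cortex 2, with edgeR adjusted p of 0.0611 to 0.0958, and Dld without diencephalon 2, diencephalon 3 or cortex 2, with edgeR adjusted p of 0.0773 to 0.178. On the log2(TPM + 1) scale Suclg2 did not pass (limma adjusted p = 0.189). Of the carriers of the inner and outer membrane, 2 of 16 fell, Vdac2 and the phosphate carrier Slc25a3, and 2 rose, Ucp2 and Slc25a27. Vdac2, an outer membrane channel, was at 55.8 ± 2.20 and 90.1 ± 0.922 CPM (log2 -0.69 ± 0.15, edgeR adjusted p = 0.00126). Ucp2, an uncoupling protein, was at 74.7 ± 10.1 and 22.7 ± 1.59 CPM (log2 1.71 ± 0.19, edgeR adjusted p = 4.50e-07). Among the cristae and fusion proteins 1 of 13 fell, Higd1a (edgeR adjusted p = 0.0223), which lost the call without any 1 of the diencephalic libraries or cortex 2 (edgeR adjusted p of 0.0563 to 0.0613).

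The regulators of mitochondrial gene expression had 1 of 14 lower and 1 higher, and these were the related coactivators Ppargc1a and Ppargc1b. Ppargc1a was at 390 ± 28.4 CPM (SD, n = 3) in the diencephalon and 493 ± 21.7 CPM in cortical grey matter (log2 -0.34 ± 0.12, edgeR adjusted p = 0.0396). Ppargc1b was at 69.4 ± 15.8 and 38.3 ± 3.30 CPM (log2 0.86 ± 0.19, edgeR adjusted p = 0.00149). Ppargc1b kept its call in all 18 alternatives, whereas Ppargc1a lost it in 7, among them the removal of diencephalon 2, diencephalon 3, cortex 1 or cortex 2.

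Markers of other cells differed between the regions as well. Cortical excitatory neuron markers summed to 635 to 985 CPM in the diencephalon and to 4807 to 5688 CPM in cortical grey matter, with all 7 tested genes lower and Emx1 at 0 in all libraries. Neurod6, Neurod2, Tbr1 and Nrgn met the count minimum only through cortical grey matter, where they were high. General neuron markers summed to 2198 to 2255 and 2928 to 3961 CPM, with 7 of 10 at a lower level in the diencephalon. Of the general neuron markers, Rbfox3 and Snap25 fell while Stmn2, Tubb3 and Eno2 rose, and the mean sums of 2223 and 3340 CPM gave a ratio of cortex to diencephalon that became 1.15 without Snap25. Ependymal and choroid plexus markers summed to 103 to 133 and 30.4 to 68.1 CPM, with 2 of the 4 tested genes higher (Ttr and Foxj1), 1 lower (Kcnj13) and Tmem212 at 0 in cortical grey matter. Both Ttr and Foxj1 met the count minimum only through the diencephalon, where they were high. Ttr carried most of the diencephalic sum, and without Ttr the ratio of cortex to diencephalon was 1.15, the opposite direction. Oligodendrocyte markers summed to 1692 to 2250 and 762 to 997 CPM, with 0 of 8 at a lower level. Microglial markers summed to 262 to 472 and 375 to 827 CPM, endothelial markers to 39.5 to 50.1 and 72.9 to 106 CPM, and meningeal markers to 518 to 718 and 1406 to 2283 CPM. Of the 8 endothelial markers 5 were at a lower level, and of the 4 tested 2 fell, Cdh5 and Itm2a. Flt1 and Slco1a4 were nearly level (log2 -0.06 and -0.02). Without Cdh5, which met the count minimum only through cortical grey matter, the endothelial ratio of cortex to diencephalon was 1.42. Astrocyte markers were lower for 10 of 12 genes and fell for 7, against 14.8% lower over all genes tested. The part of any of these cells in the levels of the respiratory genes was not tested.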

How the data were processed

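Ribosome-bound mRNA was sequenced from 3 diencephalic and 3 cortical pools. RSEM and build mm9 are named per the submitters' processing notes; the aligner and strand setting are not stated there. The deposited tables give per gene the expected count, TPM, FPKM (not used further), length and effective length. Between 3.64% and 3.99% of the deposited expected counts in a library were not whole, and all were rounded before testing.

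Genes that passed filterByExpr (minimum count 10) were normalised by TMM and tested with the robust quasi-likelihood F test of edgeR (version 4.0.16, under R 4.3.3), with Benjamini-Hochberg adjustment over 10568 genes at 0.05. The biological coefficient of variation was 13.6%. Standard errors came from the F statistic. Length is the mean of the length column over libraries, and deciles are over tested genes. The length trend was fitted in each library as a natural spline (5 degrees of freedom). The fit was tested on simulated data.

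Members and gene lists were chosen with earlier results of these data known. Named genes were, per complex, up to 6 past the threshold, the most abundant by TPM, isoform sets, the Sdh genes, Cyc1 and Cycs, and per other list the 2 with the smallest adjusted p, and Ppargc1a. Other genes were chosen for naming after their values were seen, and so were the short motif forms. The alternatives changed the size factors (RLE), the count filter (none, 30, or met in both regions), the tool (DESeq2 1.42.0, voom in limma 3.58.1), the scale (limma on log2 of TPM plus 1 or 0.1, where the mean TPM reached 1), the replicate block, the length trend, Rn45s, and each library in turn. The filter in both regions and factors from the shortest decile were added after the data were seen. Promoters were matched by symbol or unique synonym.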

Additional observations from a re-analysis of the deposited data

How the results depend on the processing

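The number of respiratory genes lower in the diencephalon, 29 in the main test, was 22 with DESeq2 (21 of them among the 29), 29 with limma and voom (28), 29 with RLE factors (29), 26 with a minimum count of 30 (26) and 30 without a filter (28). Over all genes tested the lower share was 14.8% in the main test, 12.4% with DESeq2, 14.5% with voom and 15.0% with RLE factors. That share was 18.0% with a minimum count of 30 and 10.6% without a filter. The number of lower respiratory genes was 19 with log2(TPM + 0.1) (16 among the 29), against 6.35% of all genes. It was 9 with the length trend removed, against 15.0%, and 7 with scaling factors from the shortest decile of genes, against 7.38%. Leaving out each library gave 17 (without diencephalon 3) to 26 (without cortex 3, 22 of them among the 29), against 10.8% and 15.3% of all genes. The count of higher genes, 0 in the main test, was 1 with log2(TPM + 1), with the length trend removed and with factors from the shortest decile, each time Atp5g1, and 0 to 1 with a library left out. Without diencephalon 3 the genes called over all tested genes were 10.8% lower and 10.4% higher. The median log2 difference of -0.60 became -0.38 with log2(TPM + 1), -0.40 with log2(TPM + 0.1), -0.19 with the length trend removed, -0.26 with factors from the shortest decile and -0.49 with the count minimum in both regions, and ran from -0.60 to -0.43 with a library left out. Of the 29 genes, Cox6a1 changed sign with the length trend removed (log2 0.0099). The regulator Ppargc1a changed sign with factors from the shortest decile (log2 0.0091). Signs also changed among respiratory genes that did not pass. Of the 79 tested, 74 were negative in the main test, 59 with the length trend removed and 54 with factors from the shortest decile. The cause of these changes was not tested. Same-numbered libraries did not deviate together (correlations 0.06, -0.10 and 0.00). Counting noise lowers such correlations, so they cannot decide whether same-numbered pools came from the same mice. The numbers were not used as pairs in the main test. A replicate block gave 25 lower genes, with 1531 lower and 1506 higher over all genes. For the 15 untested genes, low expression and limited depth cannot be told apart.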
